A study of Homo sapiens with 12 samples.

Results

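Translation efficiency, the density of ribosomes on the coding sequence of an mRNA, was measured gene by gene in senescent IMR90 cells. IMR90 is a line of human fetal lung fibroblasts with a finite lifespan in culture, and these cells had been passaged until the cells stopped dividing (replicative exhaustion). The senescent group (Sen) comprised 3 independently grown cultures. Each lysate gave 1 library of ribosome-protected fragments (Ribo-seq, fragments of 28 to 32 nt left after RNase I digestion) and 1 library of poly(A)-selected RNA (RNA-seq, fragments of 47 to 51 nt), the latter from about 15% of the same lysate. Proliferating IMR90 cells (Pro, 3 lysates, the same 2 library types) had not reached exhaustion and served as a comparison state. The deposited names of the Pro RNA-seq files carry a tag resembling DMSO, a common solvent, that no label mentions, so a solvent treatment of these cells is not known. The line is a single cell type from a pair of isolates, and the labels do not tie an isolate to a lysate. No library carried a transgene or a knockdown.

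For each gene, the efficiency was the Ribo-seq reads in its coding sequence (CDS) divided by its RNA-seq CDS reads, after scaling within each library type. Log2 efficiencies are given relative to the median gene, so that 0 is the median gene and 1 is a gene with double its ratio. Both counts grow with CDS length, so the ratio is a ribosome density along the CDS, not a number of ribosomes per mRNA molecule. Genes needed at least 50 CDS reads summed over the 3 Sen libraries of each type. Of 38716 gene symbols in the tables, 5864 met both limits. A further 5436 genes had enough RNA-seq reads but fewer than 50 Ribo-seq reads, and 26 genes showed the reverse. The limit lay in a dense region of the data, as 62 genes with enough RNA-seq reads had 49 to under 50 Ribo-seq reads and 55 genes had 50 to under 51. Because a gene with little mRNA had to be well translated to pass, values are also given for the 2312 genes with at least 1863 RNA-seq reads, the depth at which a gene at 25% of the median efficiency would still reach 50 Ribo-seq reads.

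Ribosomes reach the start codon of most mRNAs by scanning from the 5′ cap, and the 5′ leader can slow or divert them. Short upstream open reading frames capture scanning ribosomes, hairpins bound by iron regulatory proteins block their loading, and a pyrimidine tract at the very start of the mRNA (the 5′ terminal oligopyrimidine, or TOP, motif) places ribosomal protein mRNAs under control of the growth kinase mTOR. Senescent fibroblasts stay metabolically active, enlarge and secrete cytokines, proteases and matrix proteins, a set known as the senescence-associated secretory phenotype (SASP).

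The Ribo-seq libraries differed widely in depth, with 1672807 CDS reads in Sen 1, 54708 in Sen 2 and 583798 in Sen 3, whereas the RNA-seq libraries held 6246797 to 8750873. The CDS took 77.8% of the reads assigned to genes in the Sen 1 Ribo-seq library, 15.0% in Sen 2 and 54.7% in Sen 3. Of the genes tested, 1106 had at least 10 Ribo-seq reads in Sen 2, and 439 had none there. Levels are given as CPM, the CDS reads of a gene scaled to a common library total, with TMM scaling for the single genes below, and those of Sen 2 for low genes therefore rest on a few reads each. Across genes, the efficiencies of Sen 1 and Sen 3 correlated at Pearson r = 0.891 (n = 5864 genes, which are not independent replicates), those of Sen 2 at 0.609 with Sen 1 and 0.579 with Sen 3. Among 665 genes with at least 600 Ribo-seq reads, these values were 0.939, 0.854 and 0.845. The labelled cell type was checked in the RNA-seq: 10 of 10 fibroblast markers reached 10 CPM in each library and summed to 36187 to 40611 CPM. Of the epithelial, endothelial and immune markers none did, with sums of 1.12 to 1.92 CPM and SFTPC, CDH5, KDR, CD3E and ITGAM among those at 0.

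Efficiency spread over a several-fold range in senescent cells. The 5th and 95th percentiles lay at -1.40 and 1.05 on the log2 scale, a 5.47-fold range, and the quartiles at -0.50 and 0.41. The spread between genes (SD 0.77) exceeded the median standard error of a gene (0.17). The standard error (SE) was calculated back from the F statistic of the fit. It is not the spread of the lysates, which is wider for some genes. Using edgeR's quasi-likelihood test with the lysate as a block and Benjamini-Hochberg adjustment (two-sided, called at an adjusted p below 0.15), 3898 genes (66.5%) differed from the median gene, 1901 of them higher (32.4%) and 1997 lower (34.1%). "Higher" and "lower" refer below to genes that passed this test. Of the 3898, 3118 had all 3 lysates on the same side of the median gene, and 3837 had Sen 1 and Sen 3 on the called side. Genes at least 1 log2 unit away numbered 630 lower (10.7%) and 332 higher (5.66%). Among the deeply sequenced 2312 genes, 687 were higher (29.7%), 1053 were lower (45.5%) and the median was -0.14. Efficiency compares libraries of different fragment length and RNA selection, and an effect of the library type on a gene cannot be told apart from its ribosome load. The choice of RNA-seq reads also matters. With the reads of the 5′ UTR, CDS and 3′ UTR together as the denominator, called the whole-mRNA denominator below, 35.6% of genes were higher and 35.9% lower, but the medians of 28 of 38 gene lists moved and 7 of them took the other sign. Its values are given beside the results that it changed most.

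In the plot of all gene lists, mRNAs with known regulatory upstream open reading frames, polyamine enzymes and antizymes, and iron-responsive element mRNAs had the lowest medians. Replication-dependent histones, metallothioneins with NRF2 targets, and glycolytic enzymes had the highest medians. The histone list rested on 10 of 65 members, none with deep RNA-seq, so the read limit left little room for lower members. The poly(A) selection of the RNA-seq also bears on this list, as described below.

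**Figure D1:**
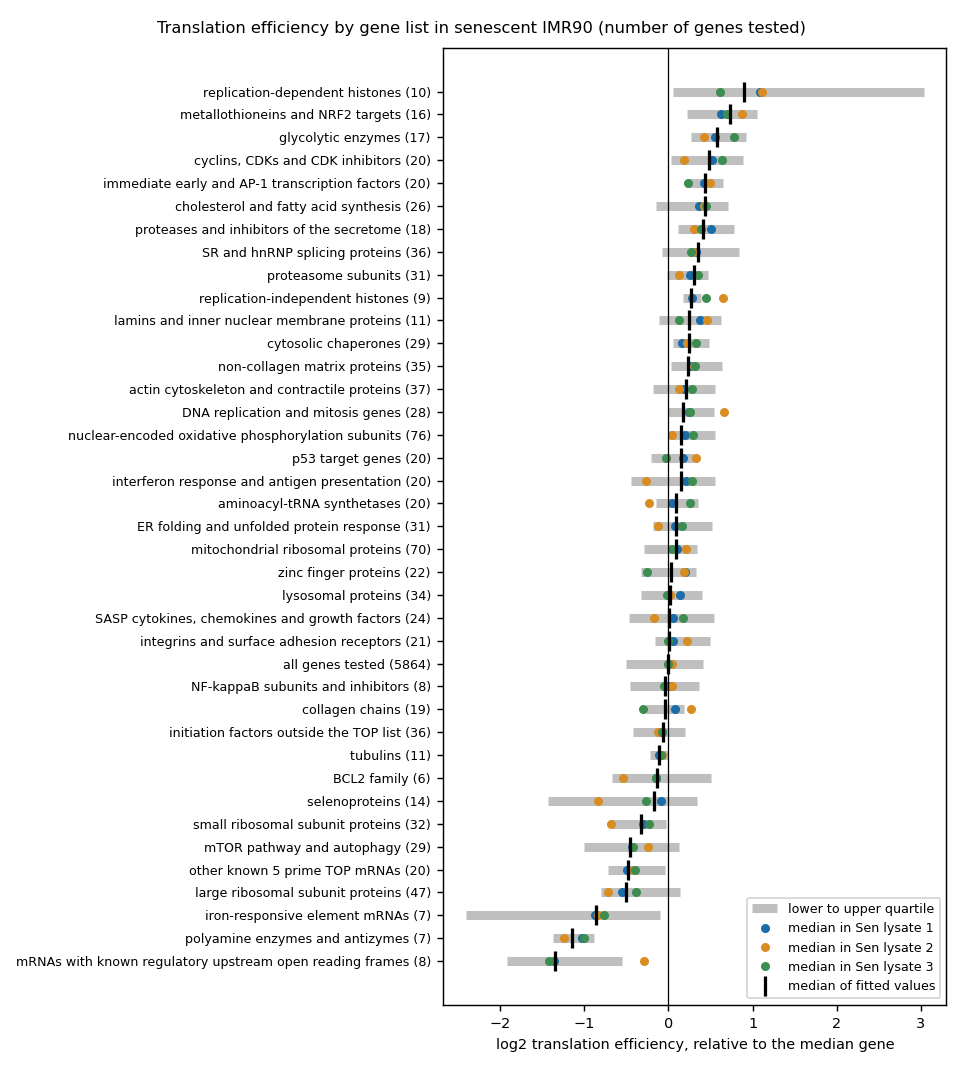
Log2 translation efficiency in senescent IMR90 cells by gene list, with the number of genes tested in parentheses. Grey bars span the quartiles of the fitted values, black ticks their median and coloured points the median in each Sen lysate. The list of known upstream open reading frames has a median of -1.35 and glycolytic enzymes of 0.58, with all genes tested at 0.

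The mRNAs of iron storage were among the most weakly loaded. The iron-responsive element (IRE) is a hairpin in the 5′ UTR that binds iron regulatory proteins, and it is shown here for the 3 members with the lowest efficiencies. Capitals mark the consensus IRE loop, searched by a script on the transcript strand of the 5′ UTR in the GENCODE v44 annotation lifted to GRCh37. FTH1 (chr11:61735048-61735077, minus strand), FTL (chr19:49468589-49468618, plus) and EPAS1 (chr2:46524615-46524644, plus) read as follows, 5′ to 3′.
FTH1: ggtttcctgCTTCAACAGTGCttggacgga
FTL: tgtctcttgCTTCAACAGTGTttggacgga
EPAS1: ccgtacaatCCTCGGCAGTGTcctgagact
The same loop consensus occurred in the 5′ UTRs of 181 of 5826 tested genes with an annotation (3.11%), whose median efficiency was -0.03, close to that of all genes.

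FTH1, the ferritin heavy chain, had 265, 265 and 248 CPM of Ribo-seq CDS reads in Sen 1, 2 and 3 against 2445, 2692 and 2118 CPM of RNA-seq. Its log2 efficiency was -3.23 ± 0.14 (SE), with -3.26, -3.35 and -3.14 in the 3 lysates (edgeR adjusted p = 1.3e-118). All lysates lay far below the median gene and close to each other in this ratio. The 5′ UTR held 10.2%, 51.6% and 38.8% of the FTH1 footprints in the 5′ UTR and CDS of Sen 1, 2 and 3. The placement of its footprints thus differed between lysates. FTL, the ferritin light chain, had 539, 1048 and 682 CPM of Ribo-seq reads against 5353, 5596 and 5112 CPM of RNA-seq, giving -3.04 ± 0.13. Its lysates were at -3.37, -2.47 and -2.96. EPAS1, the hypoxia factor HIF-2α, stood at -1.76 ± 0.12, with -2.01, -1.48 and -1.56. TFRC, the transferrin receptor, carries its IREs in the 3′ UTR, where they stabilise the mRNA, and was higher at 0.79 ± 0.12. Of 7 members tested, 4 were lower (34.1% of all genes) and 1 was higher (32.4% of all genes), with a median of -0.86. Counts of 3 of the 7 were not whole.

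mRNAs with known regulatory upstream open reading frames formed the lowest list. Of 13 members, 8 were tested, 7 were lower and 1 was higher, with a median of -1.35 in all 8 and -1.61 in those with deep RNA-seq. Over all genes, 34.1% were lower and 32.4% higher. ATF4, the transcription factor of the integrated stress response, illustrates the leader arrangement. The stretches around its 3 upstream AUG triplets are shown with its main start codon, with each AUG written as ATG in capitals (GRCh37, plus strand, chr22:39916582-39916605, chr22:39916644-39916667, chr22:39916743-39917368 and chr22:39917442-39917465, the one before the main start spanning an intron).
ATF4 first upstream: cgcccacagATGtagttttctctg
ATF4 second upstream: acggccaccATGgcgtattagggg
ATF4 last upstream: gcttaagccATGgcgcttctcacg
ATF4 main start: caccgcaacATGaccgaaatgagc

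ATF4 had 57.5, 53 and 38.5 CPM of Ribo-seq CDS reads against 359, 416 and 344 CPM of RNA-seq. Its log2 efficiency was -2.86 ± 0.15, with -2.69, -2.81 and -3.18 in the lysates. Of its footprints in the 5′ UTR and CDS together, 71.0% lay in the 5′ UTR in Sen 1 (233 of 328 reads, 95% Wilson interval 65.9 to 75.7%), 66.7% in Sen 2 (6 of 9 reads, 35.4 to 87.9%) and 61.4% in Sen 3 (35 of 57 reads, 48.4 to 72.9%). More footprints thus lay upstream of the main reading frame than in it in each lysate, although the intervals of Sen 2 and Sen 3 reach below 50%, while 29.5% of its RNA-seq reads in the same regions came from the 5′ UTR. These intervals cover counting error only.

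PPP1R15A, the stress-induced phosphatase subunit GADD34, was at -3.01 ± 0.18. Its lysates were at -3.39, -1.09 and -2.63, and 5 of its 56 CDS footprints came from Sen 2. IBTK was at -1.56 ± 0.19. AMD1, which makes the aminopropyl donor for polyamines, was at -1.14 ± 0.19 with Sen 2 on the other side of the median gene. PPP1R15B was at -0.59 ± 0.22. CEBPB, a transcription factor of the SASP, was at -0.43 ± 0.16, and its value turned to 0.16 when Sen 1 was left out. MDM2, the ubiquitin ligase of p53, was the member that was higher, at 1.24 ± 0.15 with the lysates between 1.13 and 2.11, but stood at 0.20 and was not called with the whole-mRNA denominator. ATF5 and DDIT3 had 27 and 11 Ribo-seq CDS reads and were not tested.

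Among tested genes with at least 100 Ribo-seq CDS reads, 24 had over 20% of their 5′ UTR and CDS footprints in the 5′ UTR, leaving out 5 symbols with outsized 5′ UTR counts. ATF4 and AZIN1 were among them. Of the 24, 18 were lower and 1 was higher, with a median of -0.93, against a median of 0.10 in the 3709 genes of the same read minimum with a smaller share. The share and the efficiency both contain the CDS footprints, so they are not independent measures. The class was set by footprints alone. VPS53 and RBFOX2 had footprint shares of 67.13% and 56.73%, but RNA-seq shares of 80.96% and 88.95% in the same regions. For PRELID1 these were 25.60% and 24.28%. Membership alone thus does not show more footprints upstream than the RNA-seq reads there would give. AZIN1 is the antizyme inhibitor that spares ornithine decarboxylase. Its 5′ UTR held 47.7%, 40% and 48.9% of its 5′ UTR and CDS footprints in Sen 1, 2 and 3. Its RNA-seq share was lower at 30.97%, and its efficiency was -1.61 ± 0.16.

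The same direction was seen across all annotated leaders. The 3999 genes without an AUG triplet in the 5′ UTR had a median efficiency of 0.11, those with 1 had -0.22 (975 genes), those with 2 had -0.45 (412 genes) and those with 3 or more had -0.60 (440 genes). The share of genes that were lower rose along these classes from 25.9% to 45.4%, 56.6% and 61.8%, against 34.1% of all genes. In the genes with deep RNA-seq, the 4 medians were 0.02, -0.56, -0.91 and -1.04. With the whole-mRNA denominator they were 0.14, -0.50, -0.73 and -0.90. Each lysate showed the gap, and for 3 or more AUG triplets the deep-gene medians were -0.99, -0.72 and -1.03. The difference held at each leader length that could be compared. Deeply sequenced genes with leaders of 400 nt or more had a median of 0.11 without and -0.98 with an AUG triplet, and those with 50 to 99 nt had 0.10 and -0.51. Across all genes the number of triplets correlated with efficiency at Spearman rho = -0.302, and the GC content of the 5′ UTR at -0.241. These are descriptions over genes that share the same libraries. Genes with a purine at position -3 of the main start codon had a median of 0.01 (5261 genes) and those without had -0.18 (565 genes).

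**Figure D2:**
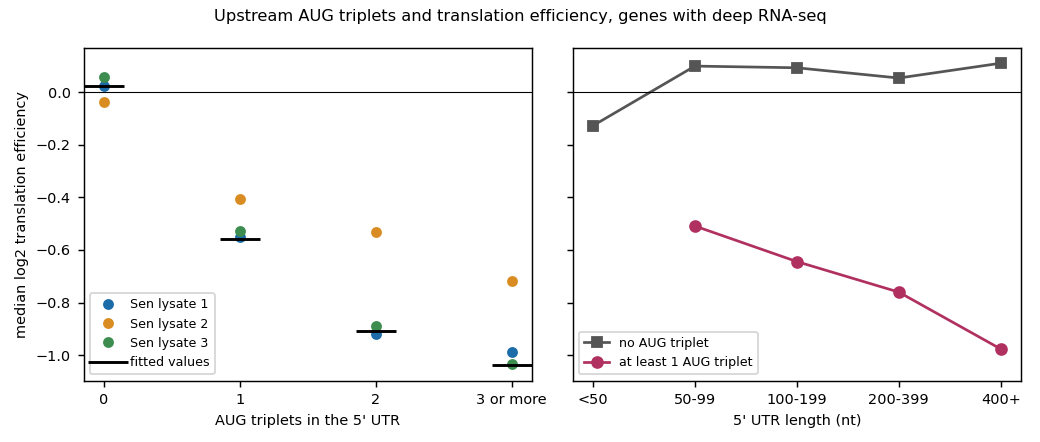
Median log2 translation efficiency of genes with at least 1863 RNA-seq reads, by the number of AUG triplets in the annotated 5′ UTR (left; points are Sen lysates and bars the fitted values) and by 5′ UTR length in nt (right). Medians fall from 0.02 without a triplet to -1.04 with 3 or more, and genes with a triplet lie below those without at each length compared.

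mRNAs of polyamine enzymes and antizymes had few footprints for their RNA-seq reads. Polyamines are growth-promoting cations whose synthesis is held in check by antizyme, a protein made through a ribosomal frameshift. All 7 tested members of 11 were lower, against 34.1% of all genes, with a median of -1.14. Of these, AZIN1 and AMD1 also count among the upstream open reading frames. OAZ1, the main antizyme, was at -1.77 ± 0.12, with -1.36, -2.63 and -2.13 in the lysates. SRM and SMS, the spermidine and spermine synthases, were at -1.14 ± 0.13 and -0.72 ± 0.12. ODC1, the rate-limiting decarboxylase, was at -0.84 ± 0.15 with all lysates below the median gene, from -0.88 to -0.61. OAZ2 was at -0.93 ± 0.17.

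Ribosomal protein mRNAs carried fewer CDS footprints per RNA-seq CDS read than the median gene, but the size of the gap depended on the RNA-seq region. The TOP motif, a run of at least 5 pyrimidines that begins with C at the annotated transcript start, is in capitals for 5 members, 3 of them lower and EEF2 and RACK1 higher (GRCh37): RPS6 (chr9:19380205-19380234, minus strand), TPT1 (chr13:45915289-45915318, minus), EEF1A1 (chr6:74230726-74230755, minus), RACK1 (chr5:180670877-180670906, minus) and EEF2 (chr19:3985432-3985461, minus).
RPS6: CTCTTTTCCgtggcgcctcggaggcgttca
TPT1: CTTTTCCgcccgctcccccctccccccgag
EEF1A1: CTTTTTCgcaacgggtttgccgccagaaca
RACK1: CTCTCTTTCactgcaaggcggcggcaggag
EEF2: CTCTTCCgccgtcgtcgccgccatcctcgg

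Of 47 large-subunit proteins, 29 were lower and 12 higher, with a median of -0.51. Of 32 small-subunit proteins, 20 were lower and 6 higher, with a median of -0.32, and of 20 other known TOP mRNAs, 13 were lower and 4 higher, with a median of -0.48. On CDS reads the shares of lower members were 61.7%, 62.5% and 65.0%, against 34.1% of all genes, and each list also held members that were higher. All members of the ribosomal lists and 19 of the 20 other TOP mRNAs had deep RNA-seq. Among all genes of that depth 45.5% were lower and the median was -0.14, so the gap to genes of like depth was smaller. With the whole-mRNA denominator the medians of the 3 lists were -0.14, -0.06 and -0.02. Lower members then numbered 23, 14 and 7 and higher ones 13, 9 and 7, so the difference of the other TOP mRNAs from all genes was lost. RPS2 was at -2.39 ± 0.13, with -2.26, -2.43 and -2.52. RPLP0, a stalk protein, was at -2.0 ± 0.12, and TPT1, the tumor protein TCTP, at -1.80 ± 0.12. RPS6, the phosphorylated target of S6 kinase, was at -1.04 ± 0.12. EEF1A1, the elongation factor that delivers tRNAs, had 6035, 7011 and 7264 CPM of Ribo-seq reads against 10384, 11393 and 9535 CPM of RNA-seq, or -0.68 ± 0.12, and was not called with the whole-mRNA denominator (-0.19). EEF2, the translocation factor, was higher at 0.65 ± 0.12, as was RACK1, a scaffold of the small subunit, at 0.55 ± 0.11. RPL36 was higher at 1.06 ± 0.11 and RPL38 at 0.89 ± 0.12, the latter at 0.12 and not called with the whole-mRNA denominator.

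A TOP-like start was annotated in 366 of 5826 genes (6.28%), whose median was -0.13 against 0.01 in the others. The 288 outside the ribosomal and TOP lists had a median of -0.03. Among large-subunit genes, the 35 with such an annotated start had a median of -0.51 and the others -0.50. The 25 small-subunit genes with such a start had -0.24 against -0.35, and the 18 other TOP mRNAs with it -0.41 against -0.79. Reads of many ribosomal protein genes are shared with processed copies and were divided in the deposited counts, so the values of single genes in these lists are uncertain.

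Among the regulators of translation and autophagy, EIF4G2 (DAP5), a scaffold that lacks the cap-binding region, was at -2.33 ± 0.13, with -2.36, -2.19 and -2.33. The 36 initiation factors outside the TOP list had a median of -0.06, with 9 higher and 11 lower. Both shares were below those of all genes (32.4% higher and 34.1% lower), so this list did not stand out in either direction. In the list of the mTOR pathway and autophagy, 17 of 29 tested members were lower and 5 were higher, with a median of -0.46. BECN1 was at -1.82 ± 0.18, and ULK1, the kinase that starts autophagy, at -1.34 ± 0.21 with no footprint in Sen 2. MTOR itself was at -0.34, which turned to 0.09 and was not called with the whole-mRNA denominator. SQSTM1, the autophagy receptor p62, was higher at 0.73 ± 0.11.

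Selenoprotein mRNAs were divided by the place of their selenocysteine codon, an in-frame UGA read through with a dedicated elongation factor. Of 14 tested, 4 were higher and 7 lower. The UGA is shown as TGA in capitals for a pair with an early and a pair with a late codon (GRCh37): GPX1 (chr3:49395553-49395579, minus strand), GPX4 (chr19:1105390-1105416, plus), TXNRD1 (chr12:104742179-104742205, plus) and SELENOS (chr15:101812970-101812996, minus).
GPX1: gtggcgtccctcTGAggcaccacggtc
GPX4: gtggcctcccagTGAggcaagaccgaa
TXNRD1: caggctggctgcTGAggttaagcccca
SELENOS: tcatctggcggaTGAggctaagaatct

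In 6 genes the codon lay in the first 50% of the CDS, and all 6 were lower, with a median of -1.61 and a range of -2.25 to -0.26. In 6 it lay in the last 5%, and 4 of these were higher and none lower, with a median of 0.41 and a range of 0.23 to 1.67. Of all genes, 32.4% were higher and 34.1% lower. The read limit bears on the late class, as SELENOI, SELENOK, SELENOO and TXNRD2 had 240, 552, 611 and 836 RNA-seq reads. A gene at the median needed 466, so SELENOI could pass only by being high and the others had little room to be low. SELENON, lower at -1.40, has 2 in-frame UGA codons and was placed in neither class. The ranges of the classes did not overlap, nor did they with the whole-mRNA denominator (-2.91 to -0.08 and 0.14 to 0.84), where SELENOM, TXNRD1 and SELENOI were no longer called. This separation was in part set by the read limit. GPX4, which reduces lipid peroxides, had 66.5, 70.7 and 80.6 CPM of Ribo-seq reads against 286, 270 and 260 CPM of RNA-seq, or -2.01 ± 0.15, and GPX1 was at -1.77 ± 0.13 with -1.75, -1.88 and -1.75. SELENOT and SELENOM were nearer to the median gene at -0.26 and -0.29. SELENOW, at -2.25, rested on 53 footprints, none from Sen 2. TXNRD1, the cytosolic thioredoxin reductase, was at 0.36 ± 0.11 and SELENOS, a membrane protein of the endoplasmic reticulum, at 0.46 ± 0.14, the latter with Sen 2 on the other side of the median gene. SELENOF, with its codon after 57.6% of the CDS, was at -0.07 ± 0.13 and was not called. Whether the place of the codon itself changed the load was not tested, since the genes differ in other ways too, and the efficiency counts footprints before and after the codon together.

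**Figure D3:**
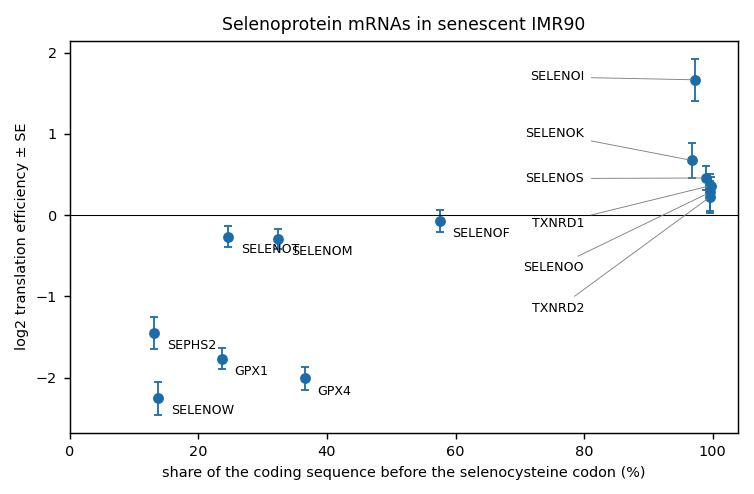
Log2 translation efficiency (fitted value ± SE of the fit) of 13 selenoprotein mRNAs against the percent of the coding sequence before the selenocysteine codon. The SE is not the spread of the 3 Sen lysates. The 6 genes with the codon in the first 50% lie between -2.25 and -0.26, and the 6 with it in the last 5% between 0.23 and 1.67.

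Metabolic and redox enzymes lay on the other side of the scale. Glycolysis had a median of 0.58, and 14 of 17 enzymes were higher (82.4%, against 32.4% of all genes) and none lower (34.1% of all genes). In those with deep RNA-seq the median was 0.48, and with the whole-mRNA denominator it was 0.95. Among the 14 enzymes with at least 10 reads in every library it was 0.31, with 9 higher and 1 lower. Counts of 16 of the 17 were not whole, against 33.1% of all genes, so the values of single enzymes are uncertain. PKM, the pyruvate kinase, had 6716, 5750 and 6396 CPM of Ribo-seq reads against 3345, 3213 and 3075 CPM of RNA-seq, or 0.92 ± 0.12. LDHA was at 0.73 ± 0.11 and ENO1 at 0.58. HK2, which commits glucose to the pathway, was at 1.57 ± 0.14 and ALDOC at 1.61 ± 0.20. GAPDH (0.14 ± 0.12) and TPI1 (-0.17) were not called. The uncalled members therefore include the abundant enzyme used as a reference in many assays.

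Of 16 metallothioneins and NRF2 targets tested, 12 were higher and 3 lower, with a median of 0.73. SLC7A11, the cystine importer, was at 1.66 ± 0.14, PGD of the pentose phosphate pathway at 1.20 and PRDX1 at 1.15 ± 0.11. HMOX1, which degrades heme, was at 1.07 ± 0.22 with a wide spread of 0.97, 3.29 and 0.51. Of the metallothioneins, which bind zinc and copper, MT2A (-0.41 ± 0.12) and MT1X (-1.25) were lower and MT1G (0.81) was higher, and reads of these near-identical genes may be divided among them. Cholesterol and fatty acid synthesis had 16 members higher (61.5%) and 5 lower (19.2%) of 26, with a median of 0.43. The enzymes MSMO1 (1.34) and FASN (1.10) were higher, whereas the regulators SCAP (-2.22) and SREBF2 (-1.30), which sense and drive the pathway, were lower. SCD was at 1.30, and at -0.23 with the whole-mRNA denominator.

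Nuclear-encoded subunits of oxidative phosphorylation had a median of 0.15, with 33 of 76 higher (32.4% of all genes) and 7 lower (34.1%). These were 54 and 5 with a median of 0.50 with the whole-mRNA denominator, and 18 and 2 without Sen 1. NDUFB6 of complex I was at 1.84 and COX6A1 of complex IV at -0.53, the latter not called with the whole-mRNA denominator (-0.03). Mitochondrial ribosomal proteins were split at 20 higher and 18 lower of 70, below the shares of all genes in both directions. With the whole-mRNA denominator 32 were higher and 12 lower, and without Sen 1 these were 5 and 8. The 13 mitochondrially encoded proteins had no match among the symbols. Proteasome subunits (17 of 31 higher, 4 lower, median 0.31) and cytosolic chaperones (15 of 29 higher, 3 lower, median 0.25) lay above the median gene. Their shares of higher members were 54.8% and 51.7%, against 32.4% of all genes. The proteasome median was 0.67 with the whole-mRNA denominator (30 higher, none lower), 0.17 without Sen 3, and 0.03 among the 21 subunits with at least 10 reads in every library (8 higher, 7 lower). The chaperone median was 0.64 with the whole-mRNA denominator and 0.05 among the 19 with at least 10 reads in every library. PSMB3 was at 1.20 and PSMC5 at -0.49, the latter not called with the whole-mRNA denominator. Splicing factors of the SR and hnRNP families were higher in 22 of 36 (61.1%, against 32.4% of all genes) and lower in 5 (13.9%, against 34.1%). Of the 23 with deep RNA-seq, 13 were higher and 3 lower. Without Sen 1, 14 of the 36 were higher and 4 lower. Counts of 17 of the 36 were not whole. SRSF1 was at 1.26 ± 0.14 and SRSF3, with 1.10, 1.26 and 1.10 in the lysates, at 1.11 ± 0.14, while HNRNPC was at -1.45 ± 0.15.

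Secreted proteins lay on both sides of the median gene. Of 24 SASP cytokines, chemokines and growth factors, 11 were higher and 8 lower, with a median of 0.01. The share of lower members (33.3%) was thus close to that of all genes (34.1%), and that of higher members was 45.8% against 32.4%. With the whole-mRNA denominator 7 were higher and 12 lower. TGFB1 was at -1.13 ± 0.15, with -1.03, -1.28 and -1.23. The vascular growth factors VEGFA and VEGFC were at -1.39 ± 0.21 and -1.07. INHBA was higher at 1.20 and GDF15 at 0.59. IL6, CXCL8 and MMP3 had 11, 31 and 24.5 Ribo-seq CDS reads against 186, 178 and 154.5 RNA-seq CDS reads and were not tested. These SASP factors, well known from other senescence models, were thus below the limit here. A gene at the median efficiency needed 466 RNA-seq reads to pass, so their absence does not speak to a low efficiency.

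Proteases and their inhibitors were higher in 12 of 18 (66.7%, against 32.4% of all genes) and lower in 3 (16.7%, against 34.1%), with a median of 0.41. TIMP1, an inhibitor of matrix metalloproteinases, had 3791, 3251 and 3161 CPM of Ribo-seq reads against 1929, 1929 and 1501 CPM of RNA-seq, or 0.89 ± 0.11, and all lysates lay above the median gene. MMP1 was at 0.62. TIMP3, at 1.44, turned to -0.36 with the whole-mRNA denominator.

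Among non-collagen matrix proteins, 21 of 35 were higher and 6 lower, with a median of 0.24, which was 0.62 with the whole-mRNA denominator and 0.01 in the 26 with at least 10 reads in every library. THBS1 (thrombospondin-1) had 9933, 8595 and 11296 CPM of Ribo-seq reads against 2707, 2426 and 2919 CPM of RNA-seq, or 1.83 ± 0.12, with 1.82, 1.77 and 1.90 in the lysates. CCN2 was at 1.42 ± 0.12 and FN1, fibronectin, at 0.91 ± 0.12, whereas EFEMP2 was at -1.22. Of 19 collagen chains, 4 were higher and 6 lower, at or below the shares of all genes (32.4% and 34.1%). With the whole-mRNA denominator 13 were higher and none lower. COL8A1 was at 0.80. COL1A1 (-0.41 ± 0.13) and COL1A2 (-0.38) were lower on CDS reads but stood at 0.10 and 0.16 with the whole-mRNA denominator, and COL3A1 (0.08) was not called. The insulin-like growth factor binding proteins differed from each other, with IGFBP5 at 1.84 ± 0.12, IGFBP3 at 0.52 and IGFBP7 at -0.39. All 3 changed sign with the whole-mRNA denominator, to -0.58, -0.20 and 0.10.

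**Figure D4:**
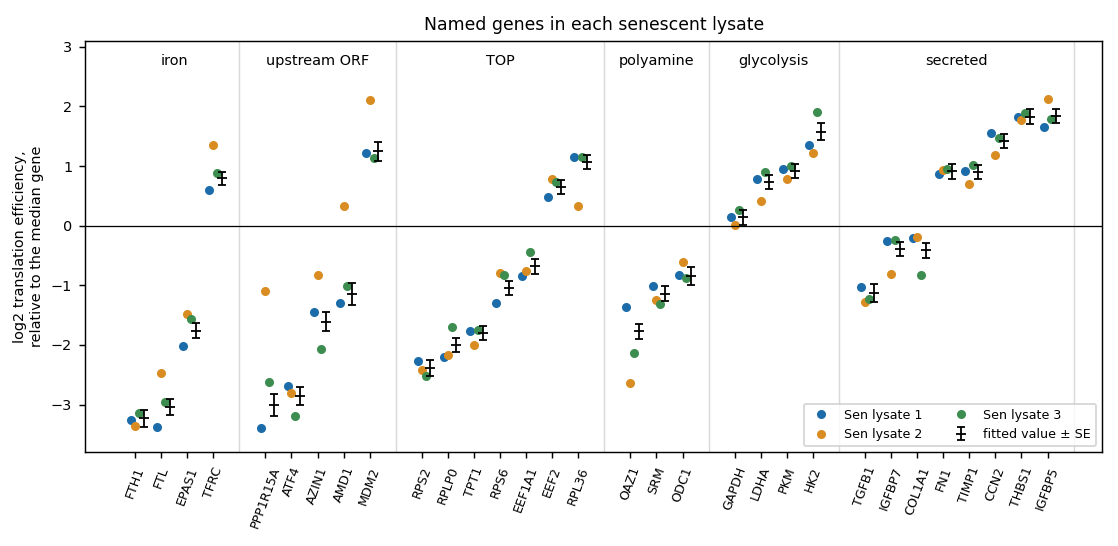
Log2 translation efficiency of named genes in each Sen lysate (coloured points) with the fitted value ± SE (black), grouped by role. FTH1 lies between -3.35 and -3.14 in the lysates and THBS1 between 1.77 and 1.90, whereas PPP1R15A and AMD1 lie higher in Sen 2 than in the other lysates.

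Cell cycle and nuclear genes showed both directions. Cyclins, CDKs and their inhibitors had 12 of 20 higher (32.4% of all genes) and 5 lower (34.1%), with a median of 0.48. With the whole-mRNA denominator it was 0.13, with 7 in each direction. A further 9 members had enough RNA-seq but too few Ribo-seq reads, and the 4 with deep RNA-seq were 3 higher and 1 lower. CDKN2A, the p16 and ARF locus, was at 0.78 ± 0.14, with 0.98, 0.10 and 0.59. CDKN1A (p21) was at 0.24 ± 0.11, with Sen 3 just under the median gene. CDK4 was at -0.69. CDKN2B (1.01), CCND1 (0.79), CDK6 (2.20) and CDKN1A turned to -0.19, -0.49, -0.65 and -1.11 with the whole-mRNA denominator. CCND2, at 4.01 ± 0.12, was at 1.88 with that denominator, and 81.4% of its mRNA reads lay in the 3′ UTR. Replication and mitosis genes had 12 of 28 higher (42.9%, against 32.4% of all genes) and none lower, with TK1 (1.21) among the higher ones. A further 19 members had enough RNA-seq but too few Ribo-seq reads, so the read limit left little room for lower members. Of the 5 with deep RNA-seq, 2 were higher, with a median of 0.17. LMNA was at 0.94 ± 0.11, and HMGB1 (0.04) and HMGB2 (-0.01) were not called. LMNB1, with 34 Ribo-seq and 225 RNA-seq reads, was not tested.

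The extremes of the scale were as follows. Among genes with at least 100 reads in each type and all lysates on the same side, the lowest were KIF1C (-3.26), KIAA0100 (-3.24), FTH1, RNF10 (-3.23), GUK1 (-3.12), TTC3 (-3.07), FTL, MGAT4B (-3.00), SHC1 (-2.99) and PABPC1 (-2.91). KIF1C, a kinesin motor, had 612, 527 and 608 CPM of RNA-seq reads against 56.6, 212 and 63.0 CPM of Ribo-seq, with Sen 2 above the others. RNF10, a ubiquitin ligase, was even across lysates at -3.17, -3.32 and -3.26. The highest included CCND2, ACTA1 (3.58), HIST1H4H (3.12), SFT2D2 (3.07), RPL10L (3.03), ACTN3 (2.96), ACTC1 (2.88), LPP (2.75) and IRGQ (2.73). ACTA1, ACTC1, ACTN3 and RPL10L are close copies of abundant genes and had read counts that were not whole, so their values are uncertain. SFT2D2, LPP and IRGQ had 92.2%, 87.2% and 80.1% of their mRNA reads in the 3′ UTR. With the whole-mRNA denominator SFT2D2 stood at -0.08 and LPP at 0.19, no longer called.

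The share of a gene's RNA-seq reads in the 3′ UTR moved with efficiency across genes, from a median of -0.08 in the lowest class of share to 0.69 in 36 genes above 80%. This share and the efficiency both contain the RNA-seq CDS reads, so they are not independent measures. Spearman rho was 0.158 over all genes and 0.063 in those with deep RNA-seq, of which 3 lay in the top class. CDS length moved the other way, with medians from 0.15 for the shortest to -0.39 for the longest class. Their part in the results above was not tested.

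Efficiencies were similar in the proliferating state for most genes. The Pro Ribo-seq libraries held 54421, 685061 and 1718521 CDS reads in Pro 1, 2 and 3. Pro 1 was thus as shallow as Sen 2, with no footprint in 541 of the 5864 genes. The Ribo-seq side of each state therefore rested mostly on its other lysates. Over 5411 genes tested in both states, senescent and proliferating values correlated across genes at Pearson r = 0.866 and Spearman rho = 0.839, and the median difference was 0.01. The interaction of library type and state (edgeR quasi-likelihood, adjusted p below 0.15) was called for 642 genes (11.9%), 372 higher in Sen (6.87%) and 270 lower (4.99%). With library totals in place of TMM factors, 228 were higher and 452 lower, so the split by direction depends on the scaling.

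The ferritins rose in efficiency with senescence while remaining far below the median gene. FTL stood at -5.05 in Pro and -3.04 in Sen, a difference of 2.0 ± 0.24 (SE, edgeR adjusted p = 2.9e-08). FTH1 stood at -4.34 and -3.23, a difference of 1.11 ± 0.20, and EPAS1 at -2.96 and -1.76, a difference of 1.19 ± 0.19. Of the 7 members of the IRE list, 4 were higher in Sen. The ribosomal lists had 14 of 47 large-subunit members higher and 1 lower, and 8 of 32 small-subunit members higher and none lower, with median differences of 0.24 and 0.19. EEF2 rose by 1.0 ± 0.16 and EEF1A1 by 0.63 ± 0.18. Oxidative phosphorylation had 3 of 76 members higher and 10 lower. Of 18 collagen chains tested in both states, 4 were lower and none higher. Over all genes, 6.87% were higher in Sen and 4.99% lower. The state comparison used CDS reads only, and the effect of the whole-mRNA denominator on it was not tested.

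Replication-dependent histones showed the widest gap between states. Their mRNAs end in a stem-loop without a poly(A) tail, and the RNA-seq selected poly(A) RNA. All 6 members tested in both states were lower in Sen, with a median difference of -3.62, from a median of 4.01 in Pro to 0.09 in Sen. HIST1H1C, a linker histone, stood at 5.32 in Pro and 1.63 in Sen. In Sen, 10 of 65 members passed the read limits, 5 were higher and 1 was lower, and 15 more had Ribo-seq but not RNA-seq reads enough. Their counts were not whole, and HIST2H2AA3 and HIST2H2AA4 had identical values, as did HIST2H4A and HIST2H4B. The ratio of ribosomes to poly(A) RNA in this class cannot be told apart from the loss of its mRNAs in the RNA selection.

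**Figure D5:**
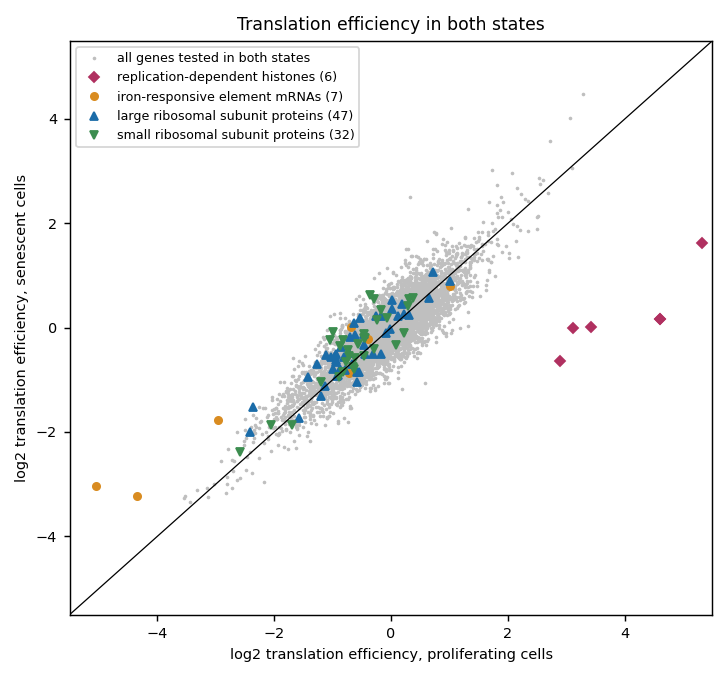
Log2 translation efficiency in senescent against proliferating IMR90 cells for 5411 genes (grey), with 4 gene lists marked and the line of equality drawn. The 6 replication-dependent histones lie far below the line, and the ferritins, the lowest orange points, lie above it at -3.23 and -3.04 in Sen.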

How the data were processed

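The authors deposited expected counts of reads per gene symbol for the 5′ UTR, CDS and 3′ UTR of each library, which divide reads among several placements. Per the labels, cutadapt 1.18, Bowtie 1.0.1, SAMtools 1.8 and DESeq2 1.22.2 were used. The genome build, annotation and strand handling are not given in the sources used here. Here counts were rounded and fitted with edgeR 4.0.16 (R 4.3.3) for library type (Ribo-seq over RNA-seq), with TMM factors within each type, the Ribo-seq offset centred on the median gene, and the lysate as a block, since both libraries come from the same lysate. Deviations of same-numbered Ribo-seq and RNA-seq libraries from their group means correlated at 0.216, 0.107 and 0.203 over 665 deep genes and at 0.078, 0.015 and 0.049 over all. The state comparison used all 12 libraries and the interaction of type and state. The study used a false discovery rate of 15%, which set the threshold. Lysate values add 0.5 reads to each count. Leader features came from GENCODE v44 on GRCh37, matched by symbol for 5826 of 5864 genes (99.4%). Libraries of the same group differed by more than sampling noise in each of the 4 groups. Named genes were the 10 highest and lowest (one Y-linked gene is omitted), the extreme called members of each list, and a fixed list; further members were named after their values were seen. Members and the 39 gene lists were chosen with earlier results of these data known. Alternatives were DESeq2 1.42.0, limma 3.58.1, other scalings, filters, denominators and left-out replicates. Results for a few withheld items are not reported here. The scripts were tested on simulated data.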

Additional observations from a re-analysis of the deposited data

Results flagged for a closer look

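Efficiency differed between senescent and proliferating cells, by the interaction test itself, for 32 genes named here. The differences below are Sen minus Pro on the log2 scale, from edgeR's quasi-likelihood test at an adjusted p below 0.15, with 3 lysates per state.

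Lower in Sen were the replication-dependent histones HIST2H2AA3 (-4.44), HIST1H1C (-3.70), HIST1H2BK (-3.54), HIST2H2AC (-3.41) and HIST1H2AC (-3.12), whose poly(A)-selected RNA-seq reads are few. MT2A, a metallothionein, and PPP1R15B differed by -0.74 each, and AZIN1 and EIF4G2 by -0.56 each.

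Higher in Sen were the iron-responsive element mRNAs FTL (2.0), EPAS1 (1.19) and FTH1 (1.11), and the NRF2 target HMOX1 (1.03). The translation genes EEF2 and RPS14 (1.0 each), EEF1G (0.87), RACK1 (0.69), EEF1A1 (0.63) and TPT1 (0.44) were also higher, as were ODC1 (0.64) and the metabolic enzymes TK1 (0.75), ALDOC (0.73) and PGD (0.41). Among nuclear and matrix genes, CCND2 (0.94), CDKN2A (0.74), FN1 (0.51), LMNA (0.45) and TIMP3 (0.43) were higher. RPL10L (1.30), IRGQ (0.92), ACTN3 (0.89) and ACTA1 (0.86) were higher too, although RPL10L, ACTN3 and ACTA1 had counts that were not whole. Without Pro 2, 17 of the 32 were no longer called, without Pro 3 or Sen 3 16 each, and without Sen 1 13, all in the same direction.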

How the results depend on the processing

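Depth limited which genes could be tested, as 5436 fell below 50 Ribo-seq reads. Of the 123 named genes that were called, 90 stayed called in the same direction wherever they could be tested. The 3898 called genes (1901 higher, 1997 lower) became 2325 with DESeq2 (1024 higher, 1301 lower), 786 of 1106 with at least 10 reads in every library (381 and 405), and 1785 of 2312 with at least 1863 RNA-seq reads (876 and 909, in a refit of these genes alone centred on their own median, chosen after seeing the data). With 10 summed reads as the minimum, 3004 of 9917 genes were lower. The lower numbers of the last filters follow from fewer genes tested, and the cause of the DESeq2 count was not tested.

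Leaving out a replicate gave 2520 to 3906 called genes, 1180 to 1889 higher and 1340 to 2017 lower, the low ends without Sen 1, which holds most footprints. Without the replicate block, 3861 genes were called, and 642 state differences became 811. State differences fell to 67 of 2264 genes with DESeq2, and ranged from 103 to 1054 without a replicate (193 without Sen 1, 139 without Sen 3, 1054 without Pro 1, 103 without Pro 2 and 134 without Pro 3). With library totals they numbered 680, but the share higher in Sen fell from 57.9% to 33.5%.

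With RNA-seq reads of all mRNA regions, which adds UTR reads to the denominator, 28 of 38 list medians moved, 7 took the other sign, and 14 named genes changed sign: CCND1 (-0.49), CDK6 (-0.65), CDKN1A (-1.11), CDKN2B (-0.19), COL1A1 (0.10), COL1A2 (0.16), IGFBP3 (-0.20), IGFBP5 (-0.58), IGFBP7 (0.10), MAP1LC3B (-1.31), MTOR (0.087), SCD (-0.23), SFT2D2 (-0.076) and TIMP3 (-0.36). CEBPB ranged from -0.54 to 0.16 without a replicate, with the change of sign without replicate 1. The median of the list of known upstream open reading frames changed sign to 0.23 with at least 10 reads in every library, where 2 members were left.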

Other observations

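Outside the comparisons, the 5′ UTR counts of Ribo-seq were concentrated in a few symbols. OR1F1, TRIM7, TRIM55, MYNN and DPP9 together held 65.4%, 98.1% and 94.6% of the 89213, 60242 and 98768 Ribo-seq reads assigned to 5′ UTRs in Sen 1, 2 and 3, and none of these reads enters the efficiencies.

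Deep RNA with few footprints was also seen, in genes chosen after their values were seen. In 40 genes with at least 1863 RNA-seq CDS reads, fewer than 50 footprints were counted, among them TRAK2 (4688 RNA-seq and 45 Ribo-seq reads), PCSK7, ARHGAP21, IDS and CDK16. LOC112268284 had 165336 RNA-seq reads and 10 footprints. These genes were left out of the test by the Ribo-seq limit, so the lower end of the scale is not complete.

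Of the 26 genes with footprints but too few RNA-seq reads, 15 were replication-dependent histones. Others, such as ACTBL2 (378 Ribo-seq and 39.3 RNA-seq reads) and COL2A1, are close relatives of abundant genes. Zinc finger proteins were seldom measurable, as 22 of 478 were tested while 294 had enough RNA-seq but too few Ribo-seq reads, and those tested had a median of 0.03 (5 higher, 6 lower).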
